A study of Mus musculus with 6 samples.

Results

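Gangliosides are glycosphingolipids that carry sialic acid, and the genes described here encode enzymes that build and degrade them around the product of St3gal5, GM3. Of the 35976 genes in the table of gene counts, 9 were included: St3gal5, Ugcg, B4galt5, B4galt6, B4galnt1 and St8sia1, which act in synthesis, and Glb1, Hexa and Neu3, which act in breakdown. They were chosen by gene symbol with the comparison of sST2-KO and WT mice already known, and St3gal5 was chosen by its low level in sST2-KO mice, so the differences of these 9 genes are a description. No p is given for them, and whether they met the rule that was applied to all genes is stated only beside the share of all genes that met it. The table holds RNA-seq counts of brown adipose tissue (BAT) from 3 WT mice and 3 sST2-KO mice. All 6 mice were males of a C57BL/6J background, 10 weeks of age, whose BAT had been denervated and which were then exposed to 10 °C for 8 h. The sST2-KO mice carry a germline CRISPR/Cas9 deletion of the Il1rl1 intron between the exons called 8 and 9, which was meant to remove the soluble form of the IL-33 receptor and to keep its membrane form ST2L, in every tissue and not in BAT alone. The WT mice were littermates from crosses of heterozygous mice.

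Ganglioside synthesis starts from ceramide in the Golgi. Ugcg adds glucose to give glucosylceramide, B4galt5 and B4galt6 add galactose to give lactosylceramide, and St3gal5, also called GM3 synthase, adds a sialic acid to give GM3. From GM3 the pathway branches, since St8sia1 adds a further sialic acid to give GD3, and B4galnt1 adds N-acetylgalactosamine to give GM2 and related lipids. In lysosomes Glb1 takes galactose off GM1, and Hexa takes N-acetylgalactosamine off GM2. Neu3 is a sialidase of the cell surface that acts on gangliosides. In adipocytes, GM3 is known as a lipid of membrane microdomains that associates with the insulin receptor.

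The windows before the transcription starts of the genes were searched for short sequence elements, since several of these genes differed between the groups. RefSeq promoter entries (table of GRCm38.p6) existed for 7 of the 9 genes, and their 250 bases before the start were placed on GRCm39 by an exact match. Searched on both strands were the GC box GGGCGG, the CCAAT box CCAAT, the half-site of the cyclic AMP response element TGACG and CACGTG, the core of the element found before many lysosomal genes. The 30 bases with the most matches are shown for St3gal5, for Ugcg and B4galt5 as its synthesis partners, and for Glb1 and Hexa as breakdown genes, 5′ to 3′ on the strand of the gene, with the matches in capitals. The pieces are short because in GENCODE the whole windows of St3gal5 and Ugcg and 193 bases of that of B4galt5 lie in exons of longer transcripts of the same gene.
St3gal5, chr6:72074528-72074557, plus strand: tcctcgTGACGcgcgaccCCGCCCccgcct
Ugcg, chr4:59189484-59189513, plus strand: CCGCCCcttccgtcctcacgcccgCCGCCC
B4galt5, chr2:167191149-167191178, minus strand: cCCGCCCtcctaacaggccCCGCCCCGCCC
Glb1, chr9:114230086-114230115, plus strand: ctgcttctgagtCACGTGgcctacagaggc
Hexa, chr9:59446793-59446822, plus strand: gtttgggttacagaggcttggccaGGGCGG

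Over the whole windows, B4galt5 held 7 GC boxes, of which 1 pair overlapped, and St3gal5, Ugcg and Hexa held 2 each. At least 1 GC box occurred in 32.7% of the 32851 promoter windows in the table. St3gal5 was the only one of the 7 genes with the half-site TGACG, which 17.8% of all windows held, and its window also had 1 CCAAT box, as did 33.8% of all windows. Glb1 was the only one of the 7 with CACGTG, which 6.02% of all windows held, and it had none of the other 3 motifs. The St3gal5 and Ugcg windows, which differed in direction between the groups, both had 2 GC boxes. These matches describe letters only, and no binding was measured.

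The libraries held between 8159442 and 12874809 counts. Values listed together are those of replicates 1, 2 and 3 in that order. WT replicate 2 held 4526 normalized CPM (read counts scaled to library size with edgeR's TMM factors) of 6 liver genes, against 8.15 to 43.7 in the other libraries, and sST2-KO replicate 3 had 6.80% of its counts on mitochondrial genes, against 11.8% to 16.6% in the others. Il1rl1, the targeted gene, had 19, 19 and 6 counts in WT and 55, 69 and 142 in the sST2-KO libraries, and since gene counts add its soluble and membrane forms, they do not check the genotype.

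St3gal5 stood out among the 9 genes by its lower level in sST2-KO BAT. It had 125, 159 and 189 CPM in the WT libraries and 30.1, 28.2 and 34.1 CPM in the sST2-KO libraries. The groups lay far apart, and the highest sST2-KO library was below the lowest WT library. The means were 158 ± 31.9 CPM (SD, n = 3) and 30.8 ± 2.97 CPM (SD, n = 3). This gave a log2 fold change of -2.35 with a standard error of 0.22, or 5.11-fold lower. Leaving out each library in turn gave values between -2.50 and -2.21, and it was -2.35 without WT replicate 2 and -2.44 without sST2-KO replicate 3. Of the 14542 genes kept by the expression filter, 193 had a lower log2 fold change than St3gal5. In GRCm39 the gene (ENSMUSG00000056091) spans 72074329 to 72131556 of chromosome 6, plus strand. It shares 161 exon bases with 4933431G14Rik on the opposite strand, which had 0 to 5 counts per library.

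The enzymes before St3gal5 in the pathway went the other way. Ugcg, which commits ceramide to glycolipids, had 55.7, 38.3 and 28.5 CPM in WT and 83.9, 93.6 and 142 CPM in the sST2-KO libraries. Every sST2-KO library was above every WT library, with means of 40.8 ± 13.8 and 107 ± 31.1 CPM (SD, n = 3 each) and a log2 fold change of 1.38 (standard error 0.31). B4galt5, the main lactosylceramide synthase of many tissues, had 26.0, 24.7 and 21.0 CPM in WT and 32.2, 66.7 and 86.6 CPM in sST2-KO libraries. The groups did not overlap, but sST2-KO replicate 1 was close to the WT range while the other 2 were well above it. Its means were 23.9 ± 2.63 and 61.8 ± 27.5 CPM (SD, n = 3 each), with a log2 fold change of 1.37 (standard error 0.34).

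B4galt6, its close relative with the same reaction, had 6.06, 4.24 and 3.08 CPM in WT libraries and 8.64, 8.66 and 32.2 CPM in sST2-KO libraries. The sST2-KO libraries were all higher, and replicate 3 stood far above the other 2. The log2 fold change was 1.88 (standard error 0.58), and it was 0.94 (standard error 0.36) without sST2-KO replicate 3. Counted per kb of annotated exon, B4galt6 made up 14.4%, 11% and 9.61% of the 2 galactosyltransferases together in WT and 16.2%, 8.58% and 21.2% in sST2-KO libraries. The share overlapped between the groups, so a difference in the mixture of the 2 genes was not larger than the spread. Ugcg lies on chromosome 4 from 59189035 to 59222845 on the plus strand, B4galt5 on chromosome 2 from 167140364 to 167191291 on the minus strand, and B4galt6 on chromosome 18 from 20817647 to 20879504 on the minus strand (GRCm39).

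The genes of the branches after GM3 had unequal levels. B4galnt1 had 9.52, 19.2 and 8.51 CPM in WT and 36.9, 45.0 and 58.2 CPM in the sST2-KO libraries. All 3 sST2-KO libraries were above the WT libraries, and WT replicate 2 was the highest of its group. The means were 12.4 ± 5.92 and 46.7 ± 10.7 CPM (SD, n = 3 each), with a log2 fold change of 1.90 (standard error 0.35) that rose to 2.37 (standard error 0.28) without WT replicate 2. B4galnt1 lies on chromosome 10 from 127000537 to 127010607 on the plus strand, and 2433 of its exon bases are also exonic in Slc26a10 on the opposite strand. Slc26a10 had 41 to 52 counts in WT and 40 to 57 in sST2-KO libraries, while B4galnt1 had 69 to 204 and 379 to 589, and without knowledge of the strand setting the shared reads cannot be told apart.

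St8sia1, the GD3 synthase, was at the limit of detection. It had 0, 0 and 1 counts in WT and 5, 0 and 4 counts in the sST2-KO libraries, in all 1 and 9 counts, and was not tested. A count of 0 allows up to 3 counts, or 0.280 and 0.283 CPM in WT replicates 1 and 2 and 0.356 CPM in sST2-KO replicate 2, with counting error alone considered. The groups overlapped, and a difference was not detectable at this depth. It lies on chromosome 6 from 142767271 to 142910178 on the minus strand.

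The breakdown enzymes overlapped between the groups. Hexa had 105, 129 and 120 CPM in WT and 99.0, 110 and 202 CPM in sST2-KO libraries, and Glb1 had 16.4, 18.8 and 17.1 CPM in WT and 14.0, 19.2 and 27.6 CPM in sST2-KO libraries. Both genes had their highest value in sST2-KO replicate 3 and their lowest in sST2-KO replicate 1, so the groups overlapped. The log2 fold changes were 0.21 (standard error 0.29) for Hexa and 0.21 (standard error 0.27) for Glb1, which turned to -0.18 and -0.08 when sST2-KO replicate 3 was left out. Neu3 had 3.64, 2.83 and 3.08 CPM in WT and 2.44, 3.92 and 4.05 CPM in sST2-KO libraries, with a log2 fold change of 0.11 (standard error 0.33) that was -0.02 without sST2-KO replicate 3. Its groups overlapped as well, with the lowest value of all in sST2-KO replicate 1.

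Hexa and Glb1 are on chromosome 9, from 59446818 to 59474021 and from 114230144 to 114303966 on the plus strand, and Neu3 is on chromosome 7 from 99459865 to 99477636 on the minus strand. Glb1 shares 194 exon bases with Tmppe on the same strand and Hexa shares 255 with Tmem202 on the opposite strand.

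**Figure D1:**
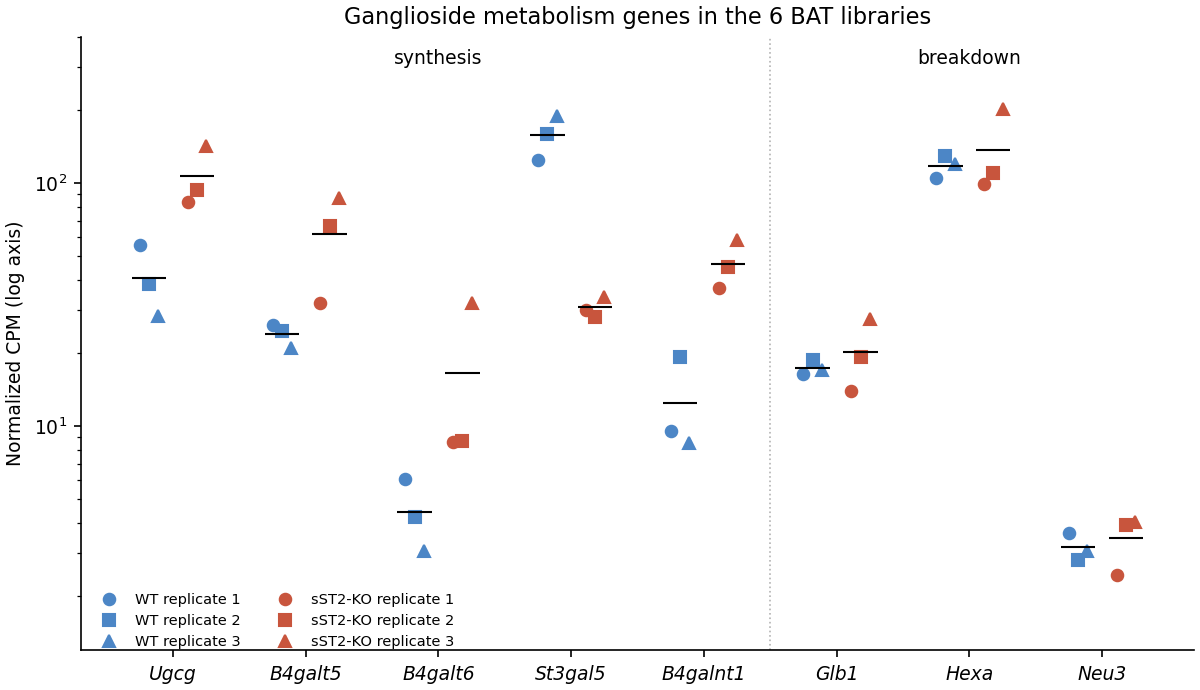
Normalized CPM (log axis) of 8 of the 9 ganglioside genes in each library, with WT in blue, sST2-KO in red, marker shape for the replicate number and a black line at the mean of 3 libraries. St8sia1, with 0 to 5 counts per library, is left out; St3gal5 is the one gene with all sST2-KO libraries below WT, and Ugcg, B4galt5, B4galt6 and B4galnt1 have all of theirs above.

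Of the 8 genes tested, 4 had all sST2-KO libraries above WT, 1 had all below and 3 overlapped. Over all 14542 genes tested, 21.8% lay above and 19.7% below without overlap. Genes with a fold above 2 and an adjusted p under 0.05 over all genes (edgeR quasi-likelihood test) are referred to as called. By this rule Ugcg, B4galt5 and B4galnt1 were called higher and St3gal5 lower, where 9.04% and 7.10% of all genes were called higher and lower. Without WT replicate 3, St3gal5 alone of the 4 met the rule, where 36 of 15085 genes tested were called higher and 22 lower. St3gal5 was chosen by its low level in this comparison, so that it met the rule there is no evidence. Since the 9 genes were picked from this same comparison, nothing is read from these calls or from how they depend on the libraries. The median of the 8 genes was 0.79 on the log2 scale, beside 0.0336 over all genes.

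**Figure D2:**
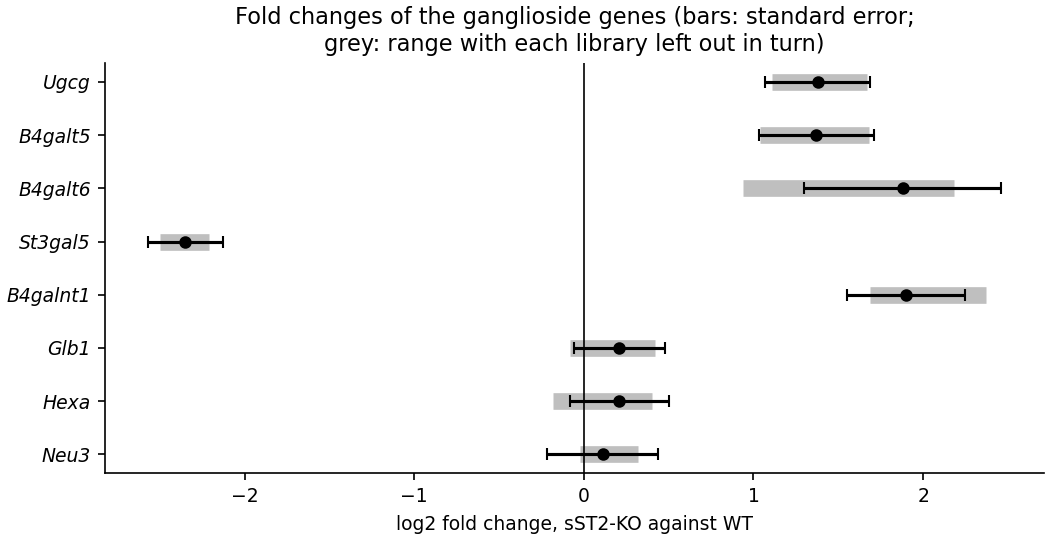
Log2 fold change of sST2-KO against WT for the 8 tested ganglioside genes, as points with bars for the standard error, over grey bands for the range when single libraries are left out. The St3gal5 band runs from -2.50 to -2.21, the B4galt6 band reaches down to 0.94, and the bands of Glb1, Hexa and Neu3 include 0.

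Expressed as CPM per kb of annotated exon, which allows levels to be compared between genes, the order of the 9 genes changed between the groups. In WT BAT, St3gal5 was the most abundant at 22.8 ± 4.6 (SD, n = 3), with Hexa next at 21.6 ± 2.22, and the ranges of the 2 genes overlapped. Ugcg at 7.09 ± 2.39, apart from Hexa, and B4galt5 at 5.31 ± 0.584 followed with overlapping ranges. Glb1 at 3.79 ± 0.271, B4galnt1 at 1.58 ± 0.753 and B4galt6 at 0.717 ± 0.242 were each apart from the gene before, and Neu3 at 0.436 ± 0.0569 overlapped with B4galt6. St8sia1 was last at 0.00435 ± 0.00753.

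In sST2-KO BAT, St3gal5 was the fifth of the 9 genes at 4.45 ± 0.430 CPM per kb (SD, n = 3). Hexa at 25 ± 10.3, Ugcg at 18.5 ± 5.40, B4galt5 at 13.8 ± 6.12 and B4galnt1 at 5.94 ± 1.37 were above it, and Glb1 at 4.4 ± 1.49 and B4galt6 at 2.65 ± 2.18 were below. Neighbors in the order among these 7 genes overlapped in range, but the range of St3gal5, 4.08 to 4.92, lay wholly below those of B4galt5, Ugcg and Hexa. Neu3 at 0.476 ± 0.122 and St8sia1 at 0.0262 ± 0.0229 were each apart from the gene before them.

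Ratios within a library do not depend on the scaling between libraries. Per kb of exon, St3gal5 was 14.9, 9.36 and 25.2 times the level of B4galnt1 in the WT libraries, and 0.928, 0.713 and 0.665 times its level in the sST2-KO libraries. Thus, by these exon lengths, the GM3 synthase transcript exceeded the GM2 synthase transcript in every WT library and in no sST2-KO library. The annotation used for counting is not known, so the order of these genes in sST2-KO libraries depends on the exon lengths used. Against Ugcg, St3gal5 was at 1.87, 3.45 and 5.52 times its level in WT and at 0.298, 0.251 and 0.2 times its level in sST2-KO libraries. Both ratios were formed from genes already seen to differ and add no independent evidence.

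**Figure D3:**
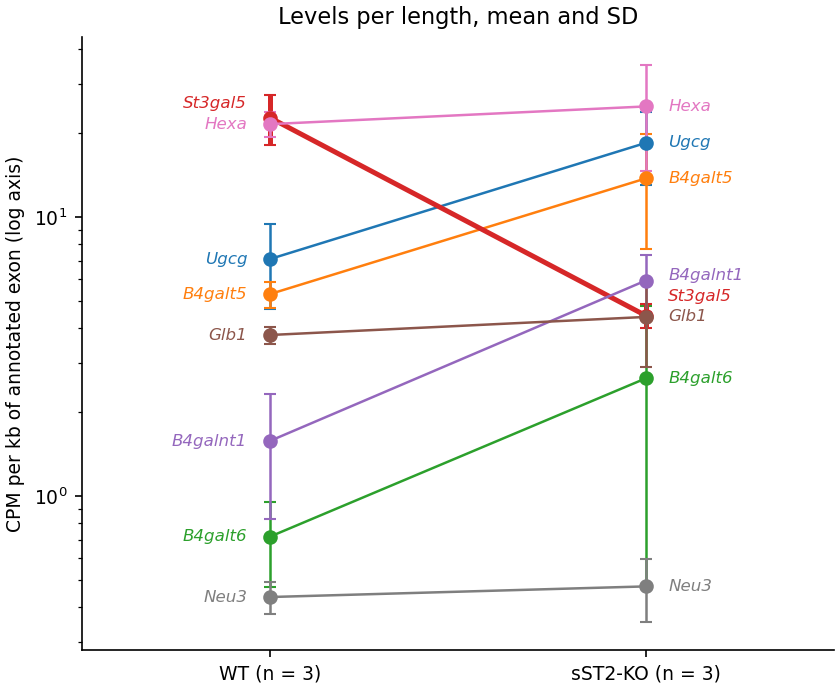
CPM per kb of annotated exon (log axis) of 8 ganglioside genes in WT and sST2-KO BAT, as means with SD bars (n = 3 each) joined by lines, without St8sia1. The thick St3gal5 line runs from 22.8, the highest WT mean, to 4.45, below the means of Hexa, Ugcg, B4galt5 and B4galnt1.

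St3gal5 was also compared with the other sialyltransferases, the enzymes that attach sialic acid to lipids and proteins. Of all normalized reads on the 20 sialyltransferase genes, St3gal5 and St8sia1 included, St3gal5 took 25.5%, 27.4% and 30.2% in WT and 8.94%, 6.77% and 8.82% in the sST2-KO libraries. Of the other 18 genes of the family 13 were tested, 0 were called higher and 2 lower, beside 9.04% and 7.10% of all genes, and their median was 0.01 on the log2 scale. St6galnac6, which makes α-series gangliosides, fell from 52.7, 62.0 and 74.2 CPM in WT to 17.4, 25 and 16.6 CPM in sST2-KO libraries, a log2 fold change of -1.68 with a standard error of 0.23 (edgeR, adjusted p = 0.0126). St6galnac2, which acts mainly on O-linked glycans of proteins, fell by 1.15 on the log2 scale with a standard error of 0.29 (edgeR, adjusted p = 0.0325).

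Without the fold minimum, 4 of the 13 had a lower level at an adjusted p under 0.05 and 0 a higher one, where 9.10% of all genes tested were lower and 10.5% higher by that rule. The other 2 were St6gal1 and St3gal3, enzymes of protein glycans, at log2 fold changes of -0.93 and -0.71. St3gal1, with the most reads of the other sialyltransferases, had 116, 163 and 165 CPM in WT libraries. In sST2-KO libraries it had 103, 166 and 131 CPM, and its groups overlapped.

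**Figure D4:**
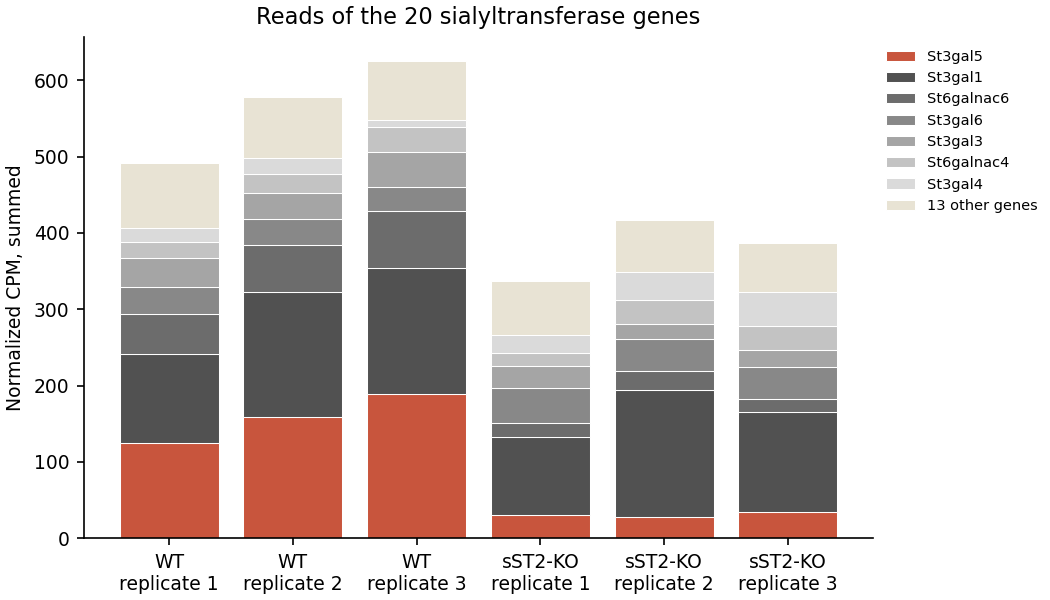
Summed normalized CPM of the 20 sialyltransferase genes in each library, stacked by gene. St3gal5 is in red, the 6 genes with the next most reads in grey and the other 13 together in beige. The red part is 25.5% to 30.2% of the bar in WT and 6.77% to 8.94% in sST2-KO libraries.

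The remaining steps of the pathway were followed in 6 lists of 82 genes, sialyltransferases included, of which 67 were tested. With adjustment over all genes tested, 4 of them were called higher and 3 lower, beside the 9.04% and 7.10% of all genes, and their median was 0.30 on the log2 scale. Scaled by total counts instead, 8 were called higher and 1 lower, where 1840 of all genes tested were called higher and 691 lower. In ceramide synthesis, Cers6, a ceramide synthase that makes ceramide with a palmitoyl chain, rose from 16.0, 7.16 and 7.27 CPM to 30.9, 29.5 and 85.8 CPM. Its log2 fold change was 2.26 with a standard error of 0.52 (edgeR, adjusted p = 0.0267), and the value was 1.56 without sST2-KO replicate 3, its highest library. Degs2, a desaturase and hydroxylase of dihydroceramide, rose from 13.5, 15.5 and 13.2 CPM to 20.1, 36.5 and 46.3 CPM, a log2 fold change of 1.28 with a standard error of 0.31 (edgeR, adjusted p = 0.0303). The other 11 tested genes of this list were not called, among them the serine palmitoyltransferase subunits Sptlc1 at -0.11 and Sptlc2 at 0.30 on the log2 scale.

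None of the 7 tested genes of the other routes and transport of ceramide was called, and Sgms1, which turns ceramide into sphingomyelin, had a log2 fold change of -0.47 with a standard error of 0.16 (edgeR, adjusted p = 0.0798). Lactosylceramide can also enter other glycolipid series. B3gnt5, which starts the lacto series from it, rose from 1.49, 1.13 and 1.11 CPM to 2.51, 6.76 and 15.4 CPM, a log2 fold change of 2.70 with a standard error of 0.66 (edgeR, adjusted p = 0.0307). Its sST2-KO libraries differed widely among themselves, with replicate 1 nearest to WT, and without replicate 3 the log2 fold change was 1.86. A4galt, which starts the globo series, had a log2 fold change of 0.42 with overlapping groups. B3galt4, which turns GM2 into GM1, had 1.03, 1.51 and 1.23 CPM in WT and 2.02, 1.19 and 2.37 CPM in sST2-KO libraries, and its groups overlapped too.

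In the supply of sialic acid and sugar nucleotides, 0 of 11 tested genes were called. Without the fold minimum, Nans, the sialic acid phosphate synthase, was higher (log2 fold change 0.96, edgeR adjusted p = 0.0483). Cmah, which hydroxylates CMP-sialic acid in mice, had 8.30, 6.31 and 2.96 CPM in WT and 4.25, 6.53 and 20 CPM in sST2-KO libraries, so that the groups overlapped.

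A list of breakdown genes other than Glb1, Hexa and Neu3 covered glycosphingolipids and also ceramide and sphingomyelin. Among its 18 tested genes, 1 was called higher and 1 lower, beside 9.04% and 7.10% of all genes. Neu2, a cytosolic sialidase, had 4, 1 and 0 counts in WT and 16, 10 and 29 counts in sST2-KO libraries (edgeR adjusted p = 0.0331), and its fitted log2 fold change of 3.27 rests on these low WT counts and was 4.73 without WT replicate 1. Smpd1, the acid sphingomyelinase, fell from 95.1, 97.3 and 142 CPM to 74.5, 40.2 and 31.1 CPM, a log2 fold change of -1.19 with a standard error of 0.35 (edgeR, adjusted p = 0.0497). Close partners of these enzymes were not called. Gm2a, the activator protein of GM2 breakdown, had a log2 fold change of 0.40 (standard error 0.32), Psap, the precursor of the saposins, -0.10 (standard error 0.33) and Neu1, the lysosomal sialidase, 0.30 (standard error 0.20). Scarb2, the receptor that carries glucocerebrosidase to lysosomes, was lower by less than the fold minimum (log2 fold change -0.74, edgeR adjusted p = 0.0314).

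The calls of these other pathway genes depended on single libraries, and so did those over all genes tested. Without WT replicate 3 no gene of the 6 lists was called, where 36 of 15085 genes tested were called higher and 22 lower. Without WT replicate 2 St6galnac6 alone was called, where 391 of 14846 genes were called higher and 480 lower. Without sST2-KO replicate 3 Cers6 and St6galnac6 alone were called, where 683 of 14882 genes were called higher and 641 lower. St6galnac6 lost its call in 1 of the 6 fits that leave out a library, with an adjusted p of 0.0606 from edgeR.

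**Figure D5:**
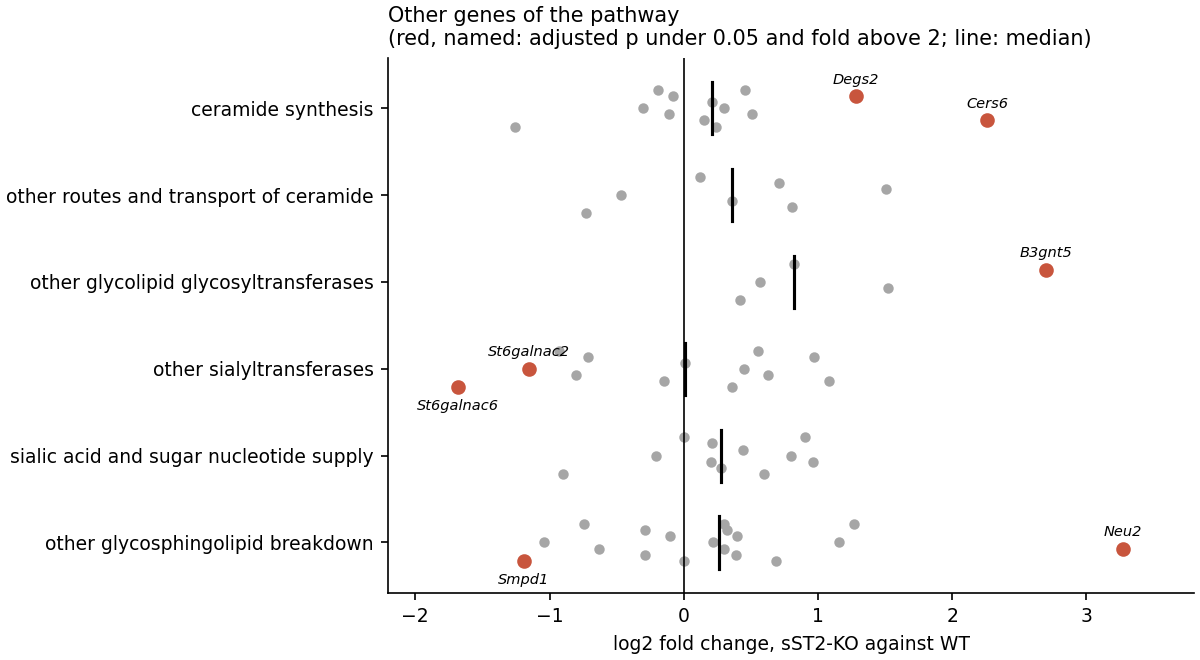
Log2 fold change of sST2-KO against WT for the 67 tested pathway genes other than the 9, in 6 lists, with called genes in red and named, the others in grey and a black line at the median of each list. The medians lie between 0.01 for the other sialyltransferases and 0.82 for the other glycolipid glycosyltransferases, and Neu2 at 3.27 and St6galnac6 at -1.68 are the ends of the range.

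Lists from outside the pathway were set beside these values. Of 21 general lysosome genes, all tested, 0 were called, where 9.04% of all genes were called higher and 7.10% lower, and the median was -0.02 on the log2 scale. A further list held 10 genes for receptors and membrane domain proteins linked to GM3, and for substrates of the insulin receptor. These were Insr, Igf1r, Egfr, Cav1, Cav2, Cavin1, Flot1 and Flot2, with Irs1 and Irs2 as the substrates. Of the 10, 0 were called, with a median of -0.17. Insr, the insulin receptor, had 169, 107 and 187 CPM in WT and 127, 98.5 and 84.9 CPM in sST2-KO libraries, with overlapping groups. Cav1, the main protein of caveolae, had a log2 fold change of -0.66 with a standard error of 0.32 (edgeR, adjusted p = 0.185). Flot1, a scaffold protein of lipid rafts, was higher without the fold minimum, at a log2 fold change of 0.91 (edgeR adjusted p = 0.0405).

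Markers of several cell types differed between the groups. In these bulk samples fewer cells of a type and less RNA per cell cannot be told apart. The marker calls below stand beside 9.04% of all genes called higher and 7.10% called lower. The labelled tissue was recognizable in WT libraries, where 8 brown adipocyte genes summed to 8212, 10179 and 15511 CPM. In sST2-KO libraries they summed to 519, 1796 and 338 CPM, and 7 of the 8 were called lower, among them Ucp1, Cidea and Elovl3. The 6 genes of all adipocytes summed to 15647 to 18359 CPM in WT and 5486 to 10488 CPM in sST2-KO libraries, and 1 of 6 was called lower. Of the T cell genes 6 of 7 were called higher, with sums of 13.9 to 15.5 CPM in WT and 123 to 151 CPM in sST2-KO libraries.

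Macrophage genes summed to 873 to 1174 CPM in WT and 1549, 1522 and 6423 CPM in the sST2-KO libraries, and 2 of 10 were called higher. The 5 neutrophil genes summed to 29.5 to 129 CPM in WT and 139 to 678 CPM in sST2-KO libraries, with 1 called higher. The 11 skeletal muscle genes were all above WT in every sST2-KO library, with sums of 65.2 to 1378 CPM and 3808 to 16122 CPM, and 1 was called higher. Among these genes Myh2, a fast myosin, was at 0 in WT replicates 2 and 3. Of the Schwann cell and neuron genes 2 of 5 tested were called lower, and of 5 endothelial genes 1 was called higher and 1 lower. None of 5 fibroblast genes was called, and their sums of 5137, 1591 and 1815 CPM in WT and 927, 1783 and 8179 CPM in sST2-KO libraries overlapped. Of 6 liver genes 2 were tested and both were called lower. The liver sums were 43.7, 4526 and 28.5 CPM in WT, with WT replicate 2 far above all other libraries. The part of these cell types in the values of the 9 ganglioside genes was not tested.

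The ganglioside genes were therefore also set against the marker sums of the same library, in a comparison chosen after the values were seen. Per 1000 CPM of the all-adipocyte genes, St3gal5 had 8.0, 9.3 and 10.3 CPM in WT and 2.87, 2.89 and 6.21 CPM in sST2-KO libraries. On this scale St3gal5 was still lower in each sST2-KO library. Per 1000 CPM of the brown adipocyte genes, it had 15.2, 15.6 and 12.2 CPM in WT and 58.1, 15.7 and 101 CPM in sST2-KO libraries, which is no lower than WT in any of them. Of these marker sums, Ucp1 alone held 5229, 6460 and 10522 CPM in WT and 160, 1042 and 153 CPM in sST2-KO libraries. Of the all-adipocyte sums, Fabp4 alone held 9717, 10070 and 11807 CPM in WT and 7038, 5678 and 3349 CPM in sST2-KO libraries. Neither sum is a count of cells. Between the groups, the brown adipocyte genes had a median log2 fold change of -3.16, beside -2.35 for St3gal5. Within the 3 sST2-KO libraries, St3gal5 ranged from 28.2 to 34.1 CPM and the brown adipocyte sums from 338 to 1796 CPM. Whether St3gal5 follows the brown adipocyte content was not tested.

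Per 1000 CPM of the macrophage genes, Ugcg had 47.4, 34.6 and 32.6 CPM in WT and 54.2, 61.5 and 22.1 CPM in sST2-KO libraries. B4galt5 had 22.2, 22.3 and 24.0 against 20.8, 43.8 and 13.5 CPM, and B4galnt1 had 8.10, 17.4 and 9.74 against 23.8, 29.5 and 9.06 CPM. All 3 genes overlapped between the groups on this scale, with the lowest value of Ugcg and B4galt5 in sST2-KO replicate 3, the library with the highest macrophage sum. Lyz2, 1 of the macrophage genes, held 3383 of the 6423 CPM of that sum, against 352, 309 and 265 CPM in WT. In sST2-KO replicates 1 and 2, Ugcg and B4galnt1 were above every WT value, and B4galt5 was so in replicate 2 alone. Per 1000 CPM of the T cell genes, B4galnt1 had 685, 1280 and 548 CPM in WT and 296, 364 and 386 CPM in sST2-KO libraries, lower in each of them than in any WT library.

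The genes whose profile over the 6 libraries was most like that of St3gal5 were found by the root mean square difference of centred log2(CPM + 0.5) values, among 14372 tested genes outside the lists. Ppif, which encodes the mitochondrial cyclophilin D, was nearest at 0.2, with 62.0, 76.4 and 100 CPM in WT and 17.4, 19.7 and 15.7 CPM in sST2-KO libraries. Ppifos, its antisense gene, followed among the first 5 at 0.222, and may share reads with Ppif. LOC100503594 at 0.213 and LOC102634904 at 0.264 had few reads, with 19, 16 and 17 counts in WT against 1, 0 and 1, and 19, 20 and 33 against 4, 1 and 3, so that the offset of 0.5 CPM bears on their distance. The last of the 5 was Atp5k, a subunit of the mitochondrial ATP synthase, at 0.282. Atp5k had 67.4, 108 and 151 CPM in WT and 24.7, 28.1 and 21.8 CPM in sST2-KO libraries. In all, 258 genes lay within 0.5 of the St3gal5 profile and 3 within 0.25, and this likeness is a description over 6 libraries that share one contrast.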

How the data were processed

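BAT libraries of 3 WT and 3 sST2-KO mice, poly-A selected and sequenced as 150 bp paired-end reads, were grouped by their labels. The authors checked reads with FastQC 0.12.1, aligned them to mm39 with HISAT2 2.2.1 (versions from the submitters' processing notes), counted them per gene with htseq-count and deposited the counts without normalization. The annotation and strand setting of the counting are not given in the sources used here. Of 35976 rows, 11377 had no count, and 27 symbols had turned into dates. These rows were kept and no result is given for them.

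The analysis used edgeR 4.0.16 (R 4.3.3), in which filterByExpr kept 14542 genes, TMM factors were 0.825 to 1.14, and glmQLFit with glmQLFTest compared the groups without covariates, with Benjamini-Hochberg adjustment over all genes tested. Standard errors were derived from the F statistic. The steps were tested on simulated data. The 9 genes and all lists were chosen with earlier results of these data known. Named were the 9 genes, the 3 largest called changes per list and direction, close partners of the pathway, the 5 profiles nearest to St3gal5 and Il1rl1. A few further genes of the lists, such as Sptlc1, Sgms1, A4galt, St3gal1, Scarb2, Nans and Flot1, were named after their values were seen. The results of a few genes that were analyzed are not reported here. Exon lengths, positions and overlaps are from GENCODE vM39. Alternatives were RLE factors, total counts, no filter, a minimum of 10 counts, robust estimation, DESeq2 1.42.0, other fold minimums, a replicate block and each library left out. No library copied another of its group (chi-square over degrees of freedom, 40.1 to 114). P-values measure the spread between these samples, which may be technical in part. Figures were drawn with matplotlib 3.10.9.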

Additional observations from a re-analysis of the deposited data

How the results depend on the processing

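With scaling by total counts, the log2 fold change of St3gal5 was -2.07 in place of -2.35, and the median of all genes tested moved from 0.034 to 0.293. The other pathway genes called were then 8 higher and 1 lower, in place of 4 and 3. Over all genes, 1840 were then called higher and 691 lower, in place of 1315 and 1033. DESeq2 called 8 pathway genes higher and 5 lower, where 1602 of all genes were called higher and 1280 lower. A minimum of 10 counts in every library left 2 pathway genes higher, where 1015 of 12609 genes tested were. With no fold minimum or a minimum of 1.5, 7 pathway genes were lower, where 1323 and 1317 of all genes were. None of these alternatives turned the direction of Ugcg, B4galt5, B4galt6, St3gal5 or B4galnt1.

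With each library left out in turn, genes called over all ranged from 36 to 1383 higher and from 22 to 998 lower, and other pathway genes from 0 to 8 higher and from 0 to 3 lower. The log2 fold change of B4galt6 ranged from 0.94 to 2.18. The 2 fits with the fewest genes called over all were those without WT replicate 3 and without WT replicate 2, and the cause was not tested.

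The replicate numbers did not pair the samples. Libraries of the same number deviated from their group means with correlations of -0.06, 0.22 and -0.32. With the replicate block, 0 genes were called in either direction, 0 other pathway genes among them, while 4623 genes had an unadjusted p under 0.05 in edgeR and 5269 without the block, and DESeq2 was not run with it. The log2 fold change of St3gal5 with the block was -2.34. Depth limits St8sia1, and low WT counts limit Neu2.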

Other observations

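A few low-count genes of the pathway did not pass the expression filter although their groups did not overlap. They are given as counts that were picked after being seen. B4galnt2, which adds N-acetylgalactosamine to other sialylated glycans, had 25, 11 and 21 counts in WT and 10, 7 and 6 counts in sST2-KO libraries. St8sia5, which adds sialic acid to complex gangliosides, had 2, 0 and 0 counts in WT and 8, 6 and 25 counts in sST2-KO libraries. Sptlc3, a subunit of serine palmitoyltransferase, had 5, 1 and 6 counts in WT and 0 in each sST2-KO library, where a count of 0 allows up to 3 counts. No test or fold is given for these genes.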
